A study of Mus musculus with 11 samples.

Results

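The genes described here are 10 genes of iron uptake, storage and export, out of 12932 genes in a table of alveolar macrophage RNA. They were selected by name, by what their products do with iron, and all 10 were in the table and passed the filter on low values. One of them, *Steap3*, was also chosen from its measured values, because it moved in opposite directions in RXR-deficient mature and immature cells. Its values against control cells are therefore given as a description and were not tested. The list as a whole was chosen with earlier results of these data known. The p-values of the other members thus do not come from a choice blind to the data.

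The study asked what the nuclear receptors RXRα and RXRβ do in alveolar macrophages, the phagocytes that live in the air spaces of the lung. Polyadenylated RNA was sequenced from sorted mature alveolar macrophages (mAMs, CD11b−/SiglecF+) of Cre-negative *Rxrab* fl/fl mice (mAM_WT, 4 libraries), from mAMs of *Cd11c*-Cre+ *Rxrab* fl/fl littermates (mAM_KO, 4 libraries) and from immature alveolar macrophages (ImmAMs, CD11b+/SiglecF+) of *Cd11c*-Cre+ *Rxrab* fl/fl mice (ImmAM_KO, 3 libraries, numbered 2 to 4). Mice were 9 weeks old, of both sexes and of the C57BL/6J background. All groups carried the floxed *Rxra* and *Rxrb* alleles, and Cre was driven by *Cd11c* (*Itgax*), which other lung phagocytes such as dendritic cells also express. There were no ImmAMs of control mice, so genotype and maturity cannot be told apart where ImmAM_KO is set against mAM_WT. The study's legends give 3 mAM_KO libraries with no reason for the difference. Replicate 4 of mAM_KO was left out of the mAM_KO means, ranges and tests below unless stated. Its value is given beside those of the members, but for other genes only in places.

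Values are in CPM, the share of a library's reads that fell on a gene, scaled by the authors with the TMM method. Each library held 16659960 to 37873532 reads, and no member value in the fit rested on fewer than 121 reads. Differences are log2 fold changes from limma, fitted over 12889 genes with 1 mean per group, and a gene was called changed at a Benjamini-Hochberg p-adj under 0.05 over all of these genes. Gene-level *Rxra* was at 310 to 380 CPM in mAM_WT, 334 to 351 CPM in mAM_KO replicates 1 to 3, 419 CPM in replicate 4 and 283 to 305 CPM in ImmAM_KO, and *Rxrb* at 51.4 to 72.1, 39.3 to 52.8, 55.3 and 31.9 to 35.2 CPM. These values include exons that a floxed allele may leave in place, so they do not check the genotype labels. Of 11 alveolar macrophage markers, 9 were lower in every ImmAM_KO library than in every mAM library, and *Pparg* and *Chil3* were not. The summed CPM of all 11 was 20832 to 31423 over all libraries, most of it *Chil3*, without which it was 3316 to 3447 in ImmAM_KO, against 7650 to 8794 in mAM_WT and 7536 to 8146 in mAM_KO. *Siglecf* itself, whose product was in the sorting gate, was at 19.3 to 19.7 CPM in ImmAM_KO against 244 to 264 CPM in mAM_WT, and *Marco* at 10.9 to 13.8 against 310 to 377 CPM. The libraries are described as separate mice, and female *Xist* and Y-linked *Ddx3y* reads were both present in every library, at 55.5 CPM or more and 39.7 CPM or more.

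Cells take up transferrin-bound iron through the transferrin receptor, reduce it in the endosome and move it into the cytosol, where it is used, stored in ferritin or exported by ferroportin. Iron-loaded ferritin is opened again when the receptor NCOA4 carries it to the lysosome. When iron is scarce, the iron regulatory proteins IRP1 and IRP2 bind iron-responsive elements, short hairpins in the untranslated regions of mRNAs. Binding at the 5′ end blocks translation, as in ferritin and ferroportin, and binding at the 3′ end stabilises the mRNA, as in *Tfrc*. Alveolar macrophages are known for large iron stores, since they clear iron-bearing particles and cells from the air spaces.

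The hairpins are shown because a transcript level stands in a different relation to the protein for each group of members. Transcripts of GENCODE vM21 (GRCm38) were searched on the sense strand for the loop pattern CNNNNNCAGTGN with 5 paired bases on each side, in which G may pair with T, and 294 of 21877 protein-coding genes (1.34%) held at least 1 match. Of the members, 4 did. The 6 loop bases are in capitals, and each run is 30 bases of DNA sense, 5′ to 3′.
Fth1, 5′ UTR, exon 1, chr19:9982732-9982761 (+): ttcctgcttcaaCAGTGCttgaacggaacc
Ftl1, 5′ UTR, exon 1, chr7:45459778-45459807 (−): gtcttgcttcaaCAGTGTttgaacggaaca
Slc40a1, 5′ UTR, exon 1, chr1:45925464-45925493 (−): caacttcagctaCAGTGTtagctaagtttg
Tfrc, 3′ UTR, exon 19, chr16:32631219-32631248 (+): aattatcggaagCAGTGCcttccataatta
Tfrc, 3′ UTR, exon 19, chr16:32631598-32631627 (+): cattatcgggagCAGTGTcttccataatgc
Tfrc, 3′ UTR, exon 19, chr16:32631663-32631692 (+): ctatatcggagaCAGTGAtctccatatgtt
Tfrc, 3′ UTR, exon 19, chr16:32631710-32631739 (+): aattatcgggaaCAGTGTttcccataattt
The ferritin pair and *Slc40a1* held 1 match each at the 5′ end and *Tfrc* held 4 at the 3′ end. Hairpins that depart from the pattern are not counted. A match is a sequence feature and was not tested for binding in these cells.

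In ImmAM_KO against mAM_WT, 4 of the 9 members tested were called higher (*Slc11a1*, *Slc40a1*, *Slc11a2* and *Fth1*) and 3 lower (*Ncoa4*, *Aco1* and *Ftl1*), while *Tfrc* and *Ireb2* did not pass. Over all genes tested, 22.8% were called higher and 25.3% lower in this comparison. In ImmAM_KO against mAM_KO, which share the genotype, *Slc11a1*, *Slc40a1*, *Slc11a2* and *Fth1* were called higher and *Ncoa4*, *Aco1* and *Ftl1* lower, beside 17.7% and 20.2% of all genes. Both comparisons use the ImmAM_KO libraries, so the second is not independent of the first. In mAM_KO against mAM_WT, limma called 2 of the 9 members higher (*Slc40a1* and *Slc11a1*) and 0 lower, beside 2.25% of all genes higher and 2.59% lower, and 5 members were at an unadjusted p under 0.05, as were 23.6% of all genes. DESeq2 called *Ftl1* and *Ncoa4* lower in that comparison, beside 6.27% of the genes it adjusted, whereas edgeR and limma-voom called no member lower. The median log2 fold change of the 9 was 0.05 in mAM_KO against mAM_WT and 0.09 in ImmAM_KO against mAM_WT. In ImmAM_KO against mAM_KO it was −0.13. The medians of all genes were −0.002, −0.003 and −0.005 in this order.

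**Figure D1:**
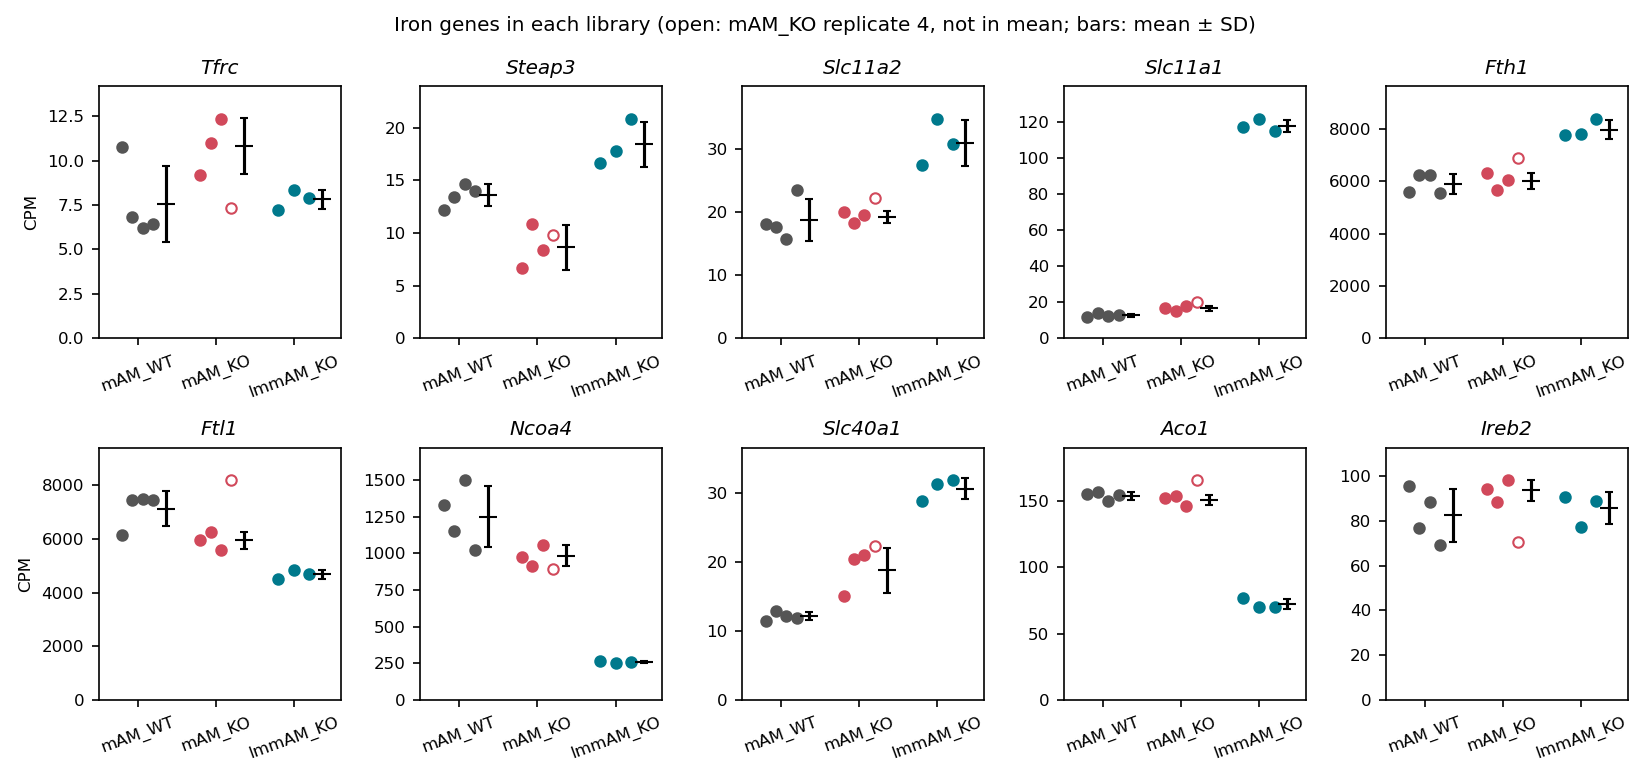
CPM of the 10 iron genes (vertical axis, from 0, one scale per gene) in each library of mAM_WT, mAM_KO and ImmAM_KO. Points are libraries, the open point is mAM_KO replicate 4, and bars give mean ± SD without it. The ImmAM_KO points of *Slc11a1*, at 115 to 122 CPM, stand far above all mAM points, and those of *Ncoa4*, at 250 to 268 CPM, far below.

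The uptake genes come first. *Tfrc* (ENSMUSG00000022797, chromosome 16, 32608920 to 32632794, + strand) encodes the transferrin receptor. It was at 10.7, 6.82, 6.21 and 6.46 CPM in the mAM_WT libraries, 9.16, 10.98 and 12.3 CPM in mAM_KO replicates 1 to 3, 7.31 CPM in replicate 4, and 7.24, 8.33 and 7.90 CPM in ImmAM_KO. The first mAM_WT library lay among the mAM_KO values, and without it mAM_WT and mAM_KO did not overlap. *Tfrc* was not called in mAM_KO (limma p-adj = 0.116, log2 fold change 0.55, SE 0.196), but passed without mAM_WT replicate 1 (0.73, limma p-adj = 0.0257), and with mAM_KO replicate 4 the difference was 0.41. In ImmAM_KO it differed from mAM_WT by 0.09 on the log2 scale, with an interval of 2 SE from −0.31 to 0.48. IRP binding to the 3′ hairpins printed above is known to act on the level of this transcript itself. Beside it, the summed CPM of 10 proliferation genes was 349 to 428, 321 to 380 and 32.7 to 33.7 in mAM_WT, mAM_KO and ImmAM_KO, and their part in the *Tfrc* values was not tested.

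*Steap3* (ENSMUSG00000026389, chromosome 1, 120190757 to 120272705, − strand) encodes the endosomal reductase that turns ferric into ferrous iron after transferrin uptake. It stood at 12.2, 13.5, 14.7 and 14.0 CPM in mAM_WT, at 6.67, 10.9 and 8.39 CPM in mAM_KO replicates 1 to 3, at 9.78 CPM in replicate 4, and at 16.7, 17.8 and 20.8 CPM in ImmAM_KO. Every mAM_KO library was below every mAM_WT library and every ImmAM_KO library above, which is the pattern it was chosen for. The log2 fold change was −0.68 (SE 0.160) in mAM_KO and 0.44 (SE 0.160) in ImmAM_KO against mAM_WT, and 1.12 (SE 0.171) between ImmAM_KO and mAM_KO. With single libraries left out, these differences ran from −0.86 to −0.51, from 0.35 to 0.51 and from 0.94 to 1.295, and over the 12 other alternatives from −0.68 to −0.62, from 0.35 to 0.47 and from 0.97 to 1.13.

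RXRs bind DNA with partner receptors at copies of the half-site AGGTCA. In RefSeq (GRCm38.p6), 15 promoter windows of 250 bases upstream of a start were listed for 8 members, and 3 of them held the half-site on either strand, as did 14.0% of all 32851 windows. The member windows were those of *Slc11a1* and *Ncoa4*, with 1 match each, and 1 of the *Steap3* windows (chr1:120270271-120270520, − strand), with 4 matches, a number reached by 0.0122% of all windows. This window was singled out after its matches were counted, for a gene that was itself chosen for its values, so the count supports nothing about *Steap3*. The 30 bases that hold its closest pair are printed to show what such a match looks like, with both half-sites in capitals.
Steap3, chr1:120270363-120270392 (−): gcttggggaTGACCTgAGGTCAatgaccga
The 2 half-sites face away from each other with 1 base between them. In GENCODE these bases also lie in an untranslated exon of 1 *Steap3* transcript, and the gene-level table does not show which start was used. Whether any receptor binds there was not measured in these libraries.

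*Slc11a2* (ENSMUSG00000023030, chromosome 15, 100387898 to 100425072, − strand) encodes DMT1, which carries ferrous iron out of the endosome. Some of its transcripts are known to end in an iron-responsive element, which the pattern searched above did not match. Its level was 18.1, 17.6, 15.7 and 23.4 CPM in mAM_WT, 20.01, 18.2 and 19.5 CPM in mAM_KO replicates 1 to 3 and 22.2 CPM in replicate 4, and mAM_WT and mAM_KO overlapped throughout. In ImmAM_KO it was 27.4, 34.7 and 30.8 CPM, above every mAM library. The gene was called higher in ImmAM_KO against mAM_WT (limma p-adj = 5.75e-04, log2 fold change 0.74, SE 0.134) and against mAM_KO (0.68, SE 0.143, limma p-adj = 0.00222). Between mAM_KO and mAM_WT the difference was 0.05, with an interval of 2 SE from −0.21 to 0.32.

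*Slc11a1* (ENSMUSG00000026177, chromosome 1, 74375195 to 74386062, + strand) encodes NRAMP1, which moves divalent metals out of the phagosome. C57BL/6 mice carry an allele that disables this protein, so its transcript level is no measure of transport in these cells. It had the largest difference of the 10 genes: 11.9, 14.1, 12.3 and 12.99 CPM in mAM_WT, 16.7, 15.3 and 18.0 CPM in mAM_KO replicates 1 to 3, 20.2 CPM in replicate 4, and 117, 122 and 115 CPM in ImmAM_KO. No groups overlapped. The level in ImmAM_KO was 9.22-fold that of mAM_WT (limma p-adj = 7.92e-11, log2 fold change 3.21, SE 0.0934) and 7.09-fold that of mAM_KO (limma p-adj = 5.73e-10).

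In mAM_KO the difference of *Slc11a1* was 1.3-fold (log2 fold change 0.38, SE 0.0934, limma p-adj = 0.0405). That call was lost with limma-voom, without the variance trend, with only the 2 groups compared and with a block for the replicate number. It was also lost without any single library except mAM_KO replicate 2, at limma p-adj up to 0.147. In bulk RNA, a few cells with much of a transcript and more RNA per cell cannot be told apart. Beside *Slc11a1*, *Itgam* (CD11b, used in the gate) was at 3.52 to 3.85 CPM in mAM_WT, 3.93 to 9.95 CPM in mAM_KO and 168 to 174 CPM in ImmAM_KO. The summed CPM of 4 of 7 monocyte markers in the table was 12.96 to 17.9, 18.6 to 33.6 and 257 to 259 in the same order. This sum includes *Itgam*, and without it was 9.11 to 14.3, 10.7 to 23.6 and 83.0 to 91.0, most of it *Ccr2*. That of 5 of 6 neutrophil markers was 52.0 to 60.3, 110 to 335 and 897 to 971, of which *Mmp8* alone gave 21.5 to 31.2, 72.3 to 303 and 851 to 914 CPM. *Mmp8* is also a gene that the study counts as typical of alveolar macrophages. Without it the sums were 27.8 to 36.6, 27.7 to 37.9 and 46.6 to 56.8 CPM, with *S100a8* at 16.6 CPM or less and *S100a9* at 3.84 CPM or less in every library. The part of these genes in the *Slc11a1* values was not tested.

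**Figure D2:**
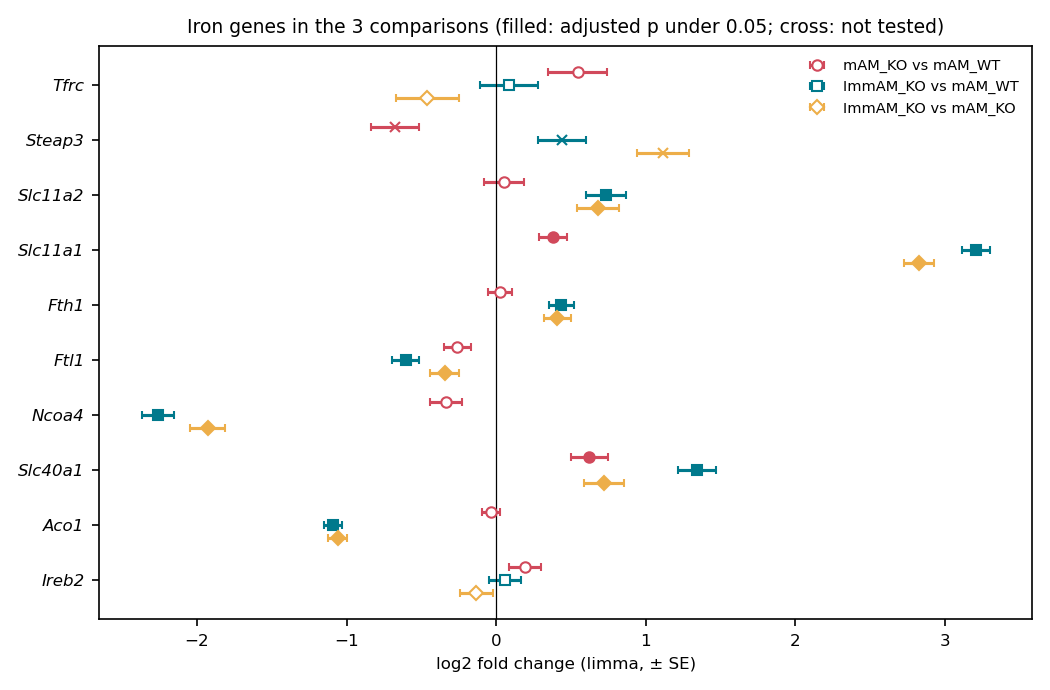
Log2 fold change from limma (horizontal axis, ± SE) of each iron gene in the 3 comparisons. Filled symbols passed p-adj under 0.05, open symbols did not, and crosses mark *Steap3*, which was not tested. *Slc11a1* reached 3.21 and *Ncoa4* −2.26 in ImmAM_KO against mAM_WT, and in mAM_KO against mAM_WT only *Slc40a1* and *Slc11a1* are filled.

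The storage genes were the most abundant. Per kilobase of the principal transcript, mAM_WT held 7364 CPM of *Ftl1*, 3953 of *Fth1*, 308 of *Ncoa4*, 40.2 of *Aco1*, 14.3 of *Ireb2* and 5.54 or less of the 5 others, down to 1.55 for *Tfrc*. In ImmAM_KO the order at the top was 5338 for *Fth1* and 4832 for *Ftl1*, and *Slc11a1*, at 51.0, lay next to *Ncoa4*, at 63.5.

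*Fth1* (ENSMUSG00000024661, chromosome 19, 9980598 to 9985098, + strand) encodes the ferritin heavy chain, which oxidises iron for storage. It was at 5585, 6238, 6239 and 5563 CPM in mAM_WT, 6310, 5675 and 6040 CPM in mAM_KO replicates 1 to 3, 6899 CPM in replicate 4, and 7751, 7802 and 8372 CPM in ImmAM_KO. The ImmAM_KO libraries were above all others, and the 2 kinds of mAM overlapped. The gene was called 1.35-fold higher in ImmAM_KO than in mAM_WT (limma p-adj = 8.00e-04, log2 fold change 0.43, SE 0.0828) and 1.33-fold higher than in mAM_KO (limma p-adj = 0.00271). In mAM_KO its difference was 0.03, with an interval of 2 SE from −0.14 to 0.19.

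*Ftl1* (ENSMUSG00000050708, chromosome 7, 45457944 to 45459884, − strand) encodes the light chain, which helps to form the iron core. It was at 6153, 7444, 7473 and 7445 CPM in mAM_WT, 5965, 6260 and 5606 CPM in mAM_KO replicates 1 to 3, 8179 CPM in replicate 4, and 4520, 4835 and 4677 CPM in ImmAM_KO. Light chain transcript thus stood lowest in ImmAM_KO, the group in which heavy chain transcript stood highest. The fall was called against mAM_WT (limma p-adj = 1.10e-04, log2 fold change −0.60, SE 0.0897) and against mAM_KO (−0.34, SE 0.0959, limma p-adj = 0.0125). In mAM_KO the difference of −0.26 (SE 0.0897, limma p-adj = 0.107) did not pass, and with replicate 4, the highest of all 11 libraries, it was −0.14. Without mAM_WT replicate 1, the lowest of its group, the fall in mAM_KO passed (−0.33, limma p-adj = 0.0338). The light chain is the least certain member: 47.4% of its 60-base windows also occur in other genes, among them *Ftl1-ps1*, which the table lists at 0.0298 to 3.54 CPM.

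The ratio of *Fth1* to *Ftl1* CPM within a library was 0.908, 0.838, 0.835 and 0.747 in mAM_WT, 1.06, 0.906 and 1.08 in mAM_KO replicates 1 to 3, 0.843 in replicate 4, and 1.71, 1.61 and 1.79 in ImmAM_KO. A shift of scale in a library cancels in this ratio, and the ImmAM_KO values lay above all the others. The mean was 0.832 ± 0.0657 (SD, n = 4) in mAM_WT, 1.01 ± 0.0935 (SD, n = 3) in mAM_KO and 1.71 ± 0.0884 (SD, n = 3) in ImmAM_KO. The ratio was formed after the 2 genes were seen to differ in direction, and was not tested.

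**Figure D3:**
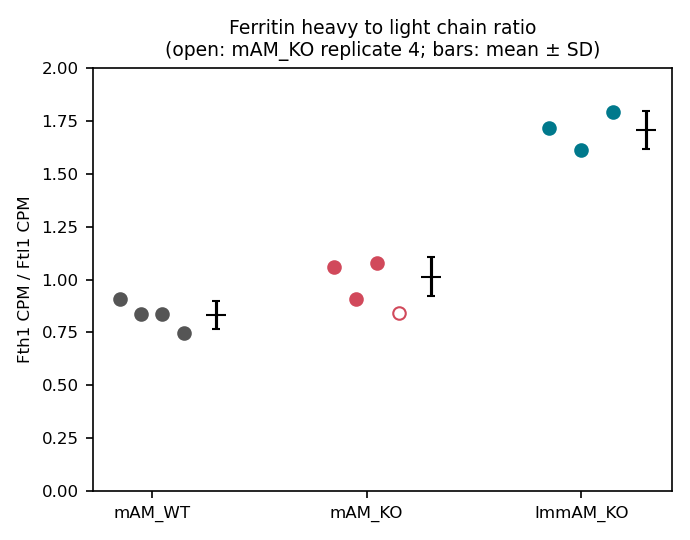
Ratio of *Fth1* CPM to *Ftl1* CPM (vertical axis, from 0) within each library of the 3 groups. Points are libraries, the open point is mAM_KO replicate 4, and bars give mean ± SD without it. ImmAM_KO libraries lie at 1.61 to 1.79 and mAM libraries at 0.747 to 1.08.

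*Ncoa4* (ENSMUSG00000056234, chromosome 14, 32159865 to 32179855, + strand), the ferritin receptor of autophagy, showed the largest fall. It was at 1328, 1154, 1498 and 1023 CPM in mAM_WT, 976, 917 and 1060 CPM in mAM_KO replicates 1 to 3, 891 CPM in replicate 4, and 268, 250 and 257 CPM in ImmAM_KO. ImmAM_KO held 4.80-fold less than mAM_WT (limma p-adj = 3.83e-09, log2 fold change −2.26, SE 0.108) and 3.81-fold less than mAM_KO (limma p-adj = 6.01e-08). In mAM_KO the values overlapped with mAM_WT through a single library each, and the difference of −0.33 (SE 0.108, limma p-adj = 0.0922) passed by DESeq2 and without mAM_WT replicate 4, the lowest of its group (limma p-adj = 0.0304). In this transcript, 17.5% of the 60-base windows also occur in other genes, so part of its count depends on how reads were divided.

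*Slc40a1* (ENSMUSG00000025993, chromosome 1, 45908068 to 45926523, − strand) encodes ferroportin, the only known iron exporter of mammalian cells. It was at 11.4, 12.8, 12.1 and 11.9 CPM in mAM_WT, 14.98, 20.3 and 20.9 CPM in mAM_KO replicates 1 to 3, 22.3 CPM in replicate 4, and 28.8, 31.2 and 31.7 CPM in ImmAM_KO. The 3 groups formed steps with no overlap, also with replicate 4. The rise was 1.54-fold in mAM_KO (limma p-adj = 0.0175, log2 fold change 0.62, SE 0.124) and 2.54-fold in ImmAM_KO (limma p-adj = 1.51e-06, log2 fold change 1.34, SE 0.124), and ImmAM_KO stood 1.65-fold above mAM_KO (0.72, SE 0.132, limma p-adj = 8.45e-04). The call in mAM_KO was lost without mAM_KO replicate 3, with only the 2 groups compared and without the variance trend (limma p-adj up to 0.0809), and held with replicate 4 (0.69, limma p-adj = 0.00812). Of the 3 members with the 5′ hairpin printed above, *Slc40a1* and *Fth1* were higher and *Ftl1* was lower in ImmAM_KO.

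The last 2 members are the iron regulatory proteins. *Aco1* (ENSMUSG00000028405, chromosome 4, 40143081 to 40198338, + strand) encodes IRP1, which is a cytosolic aconitase when it holds an iron-sulfur cluster. It was at 155, 157, 150 and 155 CPM in mAM_WT, 152, 154 and 146 CPM in mAM_KO replicates 1 to 3, 166 CPM in replicate 4, and 76.6, 70.2 and 70.4 CPM in ImmAM_KO. The mAM groups overlapped within a narrow range and ImmAM_KO was 2.13-fold lower (limma p-adj = 1.33e-08, log2 fold change −1.09, SE 0.0598), or 2.08-fold lower than mAM_KO (limma p-adj = 6.27e-08).

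*Ireb2* (ENSMUSG00000032293, chromosome 9, 54863789 to 54912530, + strand) encodes IRP2, which is broken down when iron is ample. Its values of 95.7, 76.9, 88.6 and 69.1 CPM in mAM_WT, 94.5, 88.5 and 98.1 CPM in mAM_KO replicates 1 to 3, 70.8 CPM in replicate 4, and 90.5, 77.4 and 89.1 CPM in ImmAM_KO overlapped in all pairs of groups. None of its differences passed (0.19, 0.06 and −0.13 on the log2 scale, limma p-adj from 0.291 to 0.662). The interval of 2 SE for ImmAM_KO against mAM_WT, −0.15 to 0.27, leaves out a change as large as that of *Aco1*.

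Another 98 genes of iron and heme handling, written in 5 lists from general knowledge, give the setting. Of these, 78 were in the table and tested. In ImmAM_KO against mAM_WT, 16 were called higher and 28 lower (median log2 fold change −0.14), and in ImmAM_KO against mAM_KO 11 higher and 20 lower (median −0.04). In mAM_KO against mAM_WT 1 was called higher and 1 lower (median −0.08), with 24 at an unadjusted p under 0.05. Over all genes tested the shares called were 22.8% higher and 25.3% lower, 17.7% and 20.2%, and 2.25% and 2.59% in this order of comparisons, and 23.6% were at an unadjusted p under 0.05 in the last. The limma counts of the single lists that follow stand beside the same shares. DESeq2 called 9 of the 78 in mAM_KO against mAM_WT, beside 1368 of the 12135 genes it adjusted. With replicate 4, limma called 1 of the 78 in that comparison.

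Of the 8 further uptake genes, 2 were called higher and 2 lower in ImmAM_KO against mAM_WT. *Trf*, transferrin itself, fell from 2159 ± 123 CPM (SD, n = 4) in mAM_WT to 471 ± 6.81 CPM (SD, n = 3) in ImmAM_KO (log2 fold change −2.20, limma p-adj = 7.92e-11), and was at 1909 ± 67.3 CPM (SD, n = 3) in mAM_KO. *Hfe*, which binds the transferrin receptor and slows uptake, rose from 23.1 ± 1.17 to 55.7 ± 1.78 CPM (1.27, limma p-adj = 4.51e-07). Neither was called in mAM_KO by limma, edgeR or limma-voom, and DESeq2 called *Trf* lower (adjusted p = 0.0432). The zinc and iron importers *Slc39a14* and *Slc39a8* did not pass by limma in ImmAM_KO, with log2 fold changes of 0.01 and −1.20 (limma p-adj = 0.0860 for *Slc39a8*). *Slc39a8* did not overlap between these groups. It passed with the pseudocount, with only the 2 groups compared, by DESeq2, with a block for the replicate number, and without mAM_KO replicate 1 or 2. It was near the filter, at 2.53 CPM or less in all 10 libraries of the fit.

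Among 8 genes of iron chaperones, storage control and export, 3 were called higher and 2 lower in ImmAM_KO against mAM_WT. *Pcbp2*, a chaperone that delivers iron to ferritin, was at 360 ± 8.76 and 493 ± 15.9 CPM (0.45, limma p-adj = 1.59e-05). Its paralogue *Pcbp1* was at 261 ± 40.1 and 209 ± 11.99 CPM (−0.31, limma p-adj = 0.0256), and its values overlapped between the groups. The *Pcbp1* call was lost without the variance trend, and without mAM_WT replicate 2 or ImmAM_KO replicate 2 or 4. *App*, whose protein has been described to hold ferroportin at the cell surface, fell from 1944 ± 101 to 1190 ± 33.1 CPM (−0.71, limma p-adj = 1.46e-06). *Fbxl5*, the iron sensor that marks IRP2 for breakdown, was at 187 ± 17.1 CPM in mAM_WT, 228 ± 14.7 CPM in mAM_KO (0.29, limma p-adj = 0.0525) and 222 ± 11.3 CPM in ImmAM_KO (0.26, limma p-adj = 0.0172, lost without ImmAM_KO replicate 2 or 4). In mAM_KO limma called 0 of these 8 and 0 of the 8 uptake genes, with 4 and 3 at an unadjusted p under 0.05. DESeq2 called *Fbxl5* and *Nedd4l* of the first and *Trf* of the second, and limma called *Fbxl5* with the pseudocount, the 5 CPM filter or total reads.

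The heme list held 23 tested genes, of which 4 were called higher and 9 lower in ImmAM_KO against mAM_WT, beside 22.8% and 25.3% of all genes, and 3 higher and 7 lower against mAM_KO. *Hmox1*, the oxygenase that frees iron from heme, was at 194 to 351 CPM in mAM_WT, 187 to 405 CPM in mAM_KO and 97.1 to 97.8 CPM in ImmAM_KO (−1.40 against mAM_WT, limma p-adj = 3.11e-04). *Blvra*, which acts on the biliverdin that this reaction yields, fell from 158 ± 10.7 to 52.4 ± 3.02 CPM (−1.59, limma p-adj = 9.08e-09). *Slc48a1*, which brings heme out of the phagolysosome, was at 202 ± 13.4 and 117 ± 10.1 CPM (−0.78, limma p-adj = 2.74e-06). The transporters *Flvcr1*, known as a heme exporter, and *Flvcr2* went in opposite directions: *Flvcr1* rose from 25.9 ± 3.12 to 69.5 ± 1.71 CPM (1.43, limma p-adj = 3.46e-07) and *Flvcr2* fell from 213 ± 8.14 to 63.6 ± 2.41 CPM (−1.74, limma p-adj = 5.14e-10). In mAM_KO limma called 0 of the 23, with 7 at an unadjusted p under 0.05, and DESeq2 called *Blvra* and *Lrp1*.

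The 33 genes of mitochondrial iron and iron-sulfur clusters had 4 called higher and 13 lower in ImmAM_KO against mAM_WT (median log2 fold change −0.27). *Ciao2a*, whose product is known to help mature IRP1, fell from 147 ± 10.9 to 70.0 ± 0.235 CPM (−1.07, limma p-adj = 7.49e-08), and *Aco1*, the IRP1 gene, was lower in the same comparison. *Lyrm4*, a part of the cluster assembly complex, fell from 30.001 ± 2.27 to 13.03 ± 3.14 CPM (−1.23, limma p-adj = 1.06e-05), and *Cisd3* rose from 4.90 ± 1.38 to 11.5 ± 1.31 CPM (1.26, limma p-adj = 4.33e-04). *Glrx5*, a glutaredoxin that passes clusters on, was the member of this list called in mAM_KO, at 27.3 ± 3.42 CPM in mAM_WT, 17.9 ± 1.58 CPM in mAM_KO and 12.4 ± 0.326 CPM in ImmAM_KO (log2 fold change −0.61, limma p-adj = 0.0160 in mAM_KO, and −1.14 in ImmAM_KO). In mAM_KO replicate 4 *Glrx5* was at 32.3 CPM, above the highest mAM_WT library at 31.2 CPM. Its call in mAM_KO was lost with that library, with a block for the replicate number, and without mAM_KO replicate 3.

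Of 6 further transcripts with a described iron-responsive element, 3 were called higher and 2 lower in ImmAM_KO against mAM_WT. *Epas1* (HIF2α, element at the 5′ end) was at 32.8 ± 2.58 CPM in mAM_WT, 61.7 ± 22.6 CPM in mAM_KO and 65.0 ± 1.33 CPM in ImmAM_KO. Its rise was called in mAM_KO (0.83, limma p-adj = 0.0375) and in ImmAM_KO (0.99, limma p-adj = 0.00127). Leaving out single libraries removed the call in mAM_KO 8 times out of 10, and a block for the replicate number removed it too. *Cdc14a* and *Cdc42bpa*, with elements at the 3′ end, had log2 fold changes of 1.02 and 0.66 in ImmAM_KO (limma p-adj = 8.60e-04 and 3.36e-04).

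**Figure D4:**
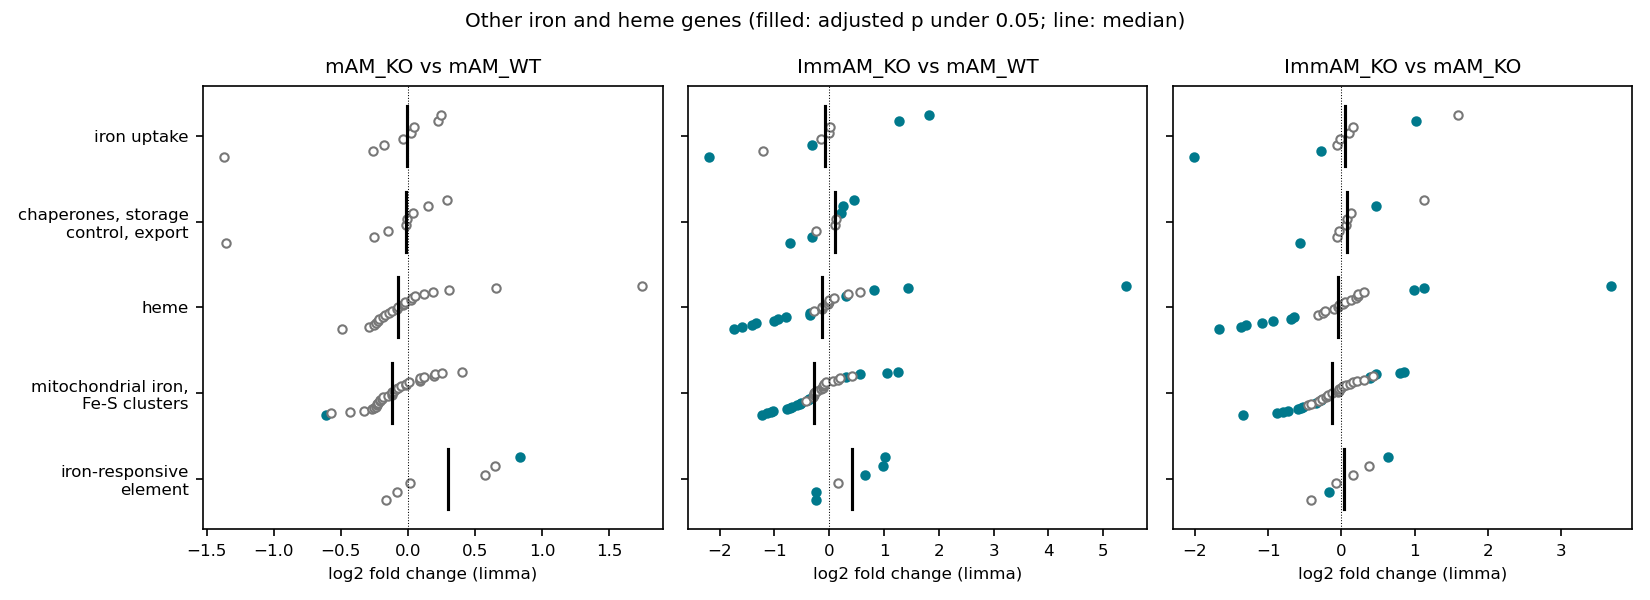
Log2 fold change from limma (horizontal axis, one scale per panel) of the 78 other iron and heme genes in 5 lists (rows) and 3 comparisons (panels). Filled points passed p-adj under 0.05, open points did not, and the line is the list's median. In mAM_KO against mAM_WT 2 points are filled, and in ImmAM_KO against mAM_WT 44.

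Likeness to a member was taken as the root mean square difference of log2 CPM over all 11 libraries, each gene centred on its own mean. *Fkbp9* lay nearest to *Steap3* (0.139), followed by *Tubb2a* (0.144), *Mthfd2* (0.149), *Siva1* (0.159) and *Ppfia4* (0.199). *Mthfd2*, a mitochondrial enzyme of folate metabolism, had means of 18.2, 11.6 and 28.1 CPM in mAM_WT, mAM_KO and ImmAM_KO. For *Slc40a1* the nearest genes were *Mettl18* (0.143), *Trim16* (0.152), *Tec* (0.159), *Snx25* (0.161) and the Fc receptor gene *Fcgr3* (0.195), whose means of 351, 531 and 942 CPM rise in the same order of groups. *Gm15446* (0.149), *Ckm* (0.155), *Gm10800* (0.169), *Zfp65* (0.170) and *Gm37254* (0.170) lay nearest to *Tfrc*. These distances describe 11 libraries in 3 groups and were not tested.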

How the data were processed

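RNA of 11 libraries (mAM_WT, mAM_KO and ImmAM_KO, grouped by the sample labels) was analysed from 1 table of 12932 genes. Per the paper's methods and the labels, the authors used Cutadapt on single-end reads of 60 bases, took the GRCm38 transcripts of Ensembl 99 as reference, obtained expected counts from RSEM 1.3.1, and normalized by TMM in limma, keeping genes that reached 1 CPM in 3 samples or more. Each deposited CPM value equals (reads + 0.5) times a step fixed within a library, and dividing by it gave whole reads within 0.01 for 100% of values. The paper places the cells in lavage fluid, and the series text in digested lung. Libraries are described as prepared from 40000 cells of individual mice, although each held both *Xist* and *Ddx3y* reads.

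Log2 CPM without a pseudocount were fitted in limma 3.58.1 (R 4.3.3) over 10 libraries and the 12889 genes that reached 1 CPM in 3 of them or more, with 3 group means and a variance trend. All tests were two-sided and adjusted by Benjamini and Hochberg. The recovered reads were tested with edgeR 4.0.16, DESeq2 1.42.0 and limma-voom. The fits were also run on simulated reads with the same spread for every gene. Spread need not be equal in these data, so that run does not measure the error rate of the calls here. Alternatives were all 11 libraries, a pseudocount of 1, no filter, a 5 CPM filter, other scalings, only 2 groups, no trend, these 3 tools, a replicate block and each library left out. For 29 rows that share a symbol, the row of highest mean was used. The members, the lists and the rules were chosen with earlier results of these data known. Named besides the members are 9 iron genes chosen by function, the 2 genes of each list and comparison with the largest difference among those called, at 5 CPM or more in the higher group and without overlap, and the 5 genes most like *Steap3*, *Slc40a1* and *Tfrc*. A gene that this rule names is not reported here.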

Additional observations from a re-analysis of the deposited data

Results flagged for a closer look

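In mAM_WT, 1 of the 4 libraries stood apart from the other 3 by Dixon's criterion for *Ftl1* (6153 CPM in replicate 1), *Tfrc* (10.7 CPM in replicate 1), *Pcbp2* (347 CPM in replicate 3) and *Lyrm4* (26.6 CPM in replicate 4). With 62 groups examined over the members and the other named genes, chance alone flags about 1 in 20. Without mAM_WT replicate 1, *Ftl1* was called lower and *Tfrc* higher in mAM_KO. The mAM_KO library left out of the tests, replicate 4, lay above the highest mAM_WT library in 5 members: *Slc40a1* at 22.3 CPM, *Fth1* at 6899 CPM, *Ftl1* at 8179 CPM, *Slc11a1* at 20.2 CPM and *Aco1* at 166 CPM. It lay below the lowest mAM_WT library in *Steap3*, at 9.78 against 12.2 CPM, and in *Ncoa4*, at 891 against 1023 CPM.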

How the results depend on the processing

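The 7 members called in each comparison with ImmAM_KO were 7 under all 12 alternatives other than left-out libraries, and 7 to 8 with single libraries left out, *Tfrc* being the added one against mAM_KO without mAM_WT replicate 1. Counts in mAM_KO against mAM_WT moved most. Of 12889 genes, 624 were called, against 337 with all 11 libraries, 199 with only the 2 groups, 122 without the trend, 1368 by DESeq2 and 174 with the replicate block, and 162 (without mAM_KO replicate 3) to 861 (without mAM_WT replicate 1) with single libraries left out. The 2 members called were 0 with only the 2 groups and without the trend, 4 by DESeq2, 1 by limma-voom and with the replicate block (*Slc40a1*, *Slc11a1* being lost), and 0 (without mAM_KO replicate 3) to 3 (without mAM_WT replicate 1). Of the other iron genes, 2 were called, against 1 with all 11 libraries, with only the 2 groups and without the trend, 9 by DESeq2, 0 with the replicate block (*Glrx5* and *Epas1* lost), and 0 (without mAM_KO replicate 3) to 7 (without mAM_KO replicate 2). The cause of these shifts was not tested.

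Log2 fold changes near 0, none of them called, changed sign. In mAM_KO against mAM_WT with single libraries left out, *Fth1* ran from −0.0104 to 0.066, *Slc11a2* from −0.0231 to 0.1685, *Hmox1* from −0.3675 to 0.1885, *Slc39a14* from −0.09 to 0.1624 and *Cdc42bpa* from −0.0858 to 0.1402. With all 11 libraries, *Aco1* was 0.002, *Cdc42bpa* −0.0694 and *Hmox1* 0.046, and *Hmox1* was 0.0217 by edgeR, 0.0223 by DESeq2 and 0.0601 with the replicate block. In ImmAM_KO against mAM_WT, *Ireb2* ran from −0.0216 to 0.135 and *Slc39a14* from −0.0412 to 0.0424. In ImmAM_KO against mAM_KO, *Slc39a14* ran from −0.1558 to 0.0966, *Slc39a8* from −0.5622 to 0.8127, *Fbxl5* from −0.075 to 0.0142 and *Epas1* from −0.1946 to 0.3672. There *Slc39a14* was 0.0001 with median-ratio scaling, 0.0074 by limma-voom and 0.0198 with the block, *Slc39a8* was −0.0224 with the pseudocount, −0.1992 by edgeR, −0.202 by DESeq2 and −0.0163 with the block, and *Fbxl5* was 0.0356 with all 11 libraries. Same-numbered libraries correlated at −0.127 to 0.261 in their deviations from the group means. Such correlations, over few libraries per group, cannot show whether a shared number marks a shared mouse or sort. The replicate block was therefore kept as an alternative, with the counts and lost calls given above.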
